A study of Mus musculus with 16 samples.

Results

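Distal H3K27ac islands of growth-arrested 3T3-L1 preadipocytes that were no longer listed after 48 h of adipogenic induction, in cells carrying either retroviral vector, are described here. An island is a stretch of adjoining enriched windows of ChIP-seq reads. The islands were selected on their presence or absence in H3K27ac lists. An island belonged to this set if it was in the empty-vector 0 h list of replicate A, shared at least 1 bp with replicate B at 0 h, overlapped no island of the 4 H3K27ac lists at 48 h (empty vector A and B, SETD5 A and B) and touched no GENCODE promoter, taken as 1000 bp upstream to 100 bp downstream of any transcript start in mm9. Of 33704 islands in the replicate A list, 30564 were shared with replicate B, 20028 of those were distal, and 4758 (23.8% of the distal islands) met the rule. They are called lost islands below, which means only that H3K27ac was under the caller's threshold at 48 h. With the letter B lists alone the same rule gave 7785 islands, with the letter A lists alone 6941, and among 0 h islands above the median score 895.

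3T3-L1 cells are mouse fibroblasts already set on the fat lineage, and the study asked how SETD5 affects enhancers when these cells become adipocytes. Cells were infected with an empty retrovirus or with one expressing V5-tagged SETD5 from its LTR, grown to confluence and induced with MDI, a mixture of isobutylmethylxanthine, dexamethasone and insulin. All 16 libraries come from this 1 line. H3K27ac was profiled in both vectors at day 0 (0 h) and day 2 (48 h), and V5 at 0 h and 6 h, each in 2 replicates lettered A and B. H3K4me1 at day 0 and day 2 and endogenous SETD5 at 0 h and 6 h had 1 library each, so they have no replicate check. The labels name the SETD5 virus for the H3K4me1 libraries and none for the replicate A V5 libraries, whereas the paper shows H3K4me1 in untransduced cells and the titles of all V5 libraries name SETD5-V5; which vector the H3K4me1 cells carried therefore cannot be told apart.

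Enhancers are stretches of DNA that bind transcription factors and raise the activity of genes that may lie far away. H3K4me1 marks enhancers that are primed or active, and H3K27ac, written by the acetyltransferases CBP and p300 and removed by histone deacetylases, marks the active ones. During adipogenesis the fibroblast-like enhancer set of the preadipocyte is replaced in part by enhancers bound by C/EBP proteins and PPARγ.

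The files list islands with a score and hold no reads within them, so depth is unknown per island. List size is given as a rough measure of sensitivity, and it does not separate sensitivity from the amount of enriched chromatin. The read totals that the study states per library were not used here. For SETD5-V5 they are higher at 6 h than at 0 h in both replicates. At 0 h they are higher in replicate B, which had the shorter SETD5-V5 list. For H3K27ac at 48 h they are higher in SETD5 cells than in empty-vector cells in both replicates. The H3K27ac lists held 31292 to 39949 islands. SETD5-V5 lists held 16054 (A) and 6666 (B) islands at 0 h and 35573 (A) and 27220 (B) at 6 h, H3K4me1 lists 50276 at 0 h and 49926 at 48 h, and endogenous SETD5 lists 2132 at 0 h and 3293 at 6 h. The chromatin at 0 h was that of fibroblast-like cells, since 12 of 13 preadipocyte or fibroblast marker genes, among them *Pdgfra*, *Col1a1*, *Thy1* and *Twist1*, had a promoter H3K27ac island in both empty-vector lists and *Cd34* had none. Of 8 adipocyte markers only *Lpl* had one, of 5 endothelial markers only *Tek*, and of 6 epithelial, 4 blood and 5 skeletal muscle markers none.

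To show what such an element looks like, the 200 bp with the most matches to the transcription factor motifs searched (given further on) were taken from each of the 6 lost islands with the highest 0 h score. They come from the plus strand of mm9 and motif matches on either strand are in capitals. These stretches were picked for holding matches, so their number of matches is no result. The islands lie near *Grpel1* (shown: chr5:36780120-36780319), in an intron of *D630042P16Rik* (chr6:112310394-112310593), 50.4 kb from the nearest transcript start, that of *Fam101a* (chr5:125431338-125431537), near *Tlr3* (chr8:46534616-46534815), near *Kcns2* (chr15:34745246-34745445) and near *Npvf* (chr6:50659205-50659404).
Grpel1 island (homeobox, TWIST E-box, homeobox): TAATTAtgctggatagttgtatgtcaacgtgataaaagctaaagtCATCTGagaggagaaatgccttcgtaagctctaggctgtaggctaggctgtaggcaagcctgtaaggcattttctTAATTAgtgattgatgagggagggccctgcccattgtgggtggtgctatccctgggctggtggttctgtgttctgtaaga
D630042P16Rik island (GC box, C/EBP, TWIST E-box): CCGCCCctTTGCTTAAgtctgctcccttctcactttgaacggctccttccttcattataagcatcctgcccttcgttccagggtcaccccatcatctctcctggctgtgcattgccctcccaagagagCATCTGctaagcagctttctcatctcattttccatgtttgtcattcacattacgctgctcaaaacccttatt
Fam101a island (STAT, homeobox, TEAD): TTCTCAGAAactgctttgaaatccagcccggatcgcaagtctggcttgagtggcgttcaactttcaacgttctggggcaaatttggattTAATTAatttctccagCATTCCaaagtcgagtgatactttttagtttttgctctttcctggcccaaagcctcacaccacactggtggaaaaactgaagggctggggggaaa
Tlr3 island (RUNX, STAT, C/EBP): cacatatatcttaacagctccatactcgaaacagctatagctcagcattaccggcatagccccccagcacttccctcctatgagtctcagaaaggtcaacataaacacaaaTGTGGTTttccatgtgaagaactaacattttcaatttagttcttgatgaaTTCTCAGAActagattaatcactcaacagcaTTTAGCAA
Kcns2 island (homeobox, homeobox, homeobox): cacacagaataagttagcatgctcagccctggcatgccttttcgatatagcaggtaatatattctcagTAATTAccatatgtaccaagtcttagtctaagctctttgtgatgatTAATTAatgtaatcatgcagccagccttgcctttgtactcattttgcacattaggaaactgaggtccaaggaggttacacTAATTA
Npvf island (C/EBP, TWIST E-box, TWIST E-box, GC box): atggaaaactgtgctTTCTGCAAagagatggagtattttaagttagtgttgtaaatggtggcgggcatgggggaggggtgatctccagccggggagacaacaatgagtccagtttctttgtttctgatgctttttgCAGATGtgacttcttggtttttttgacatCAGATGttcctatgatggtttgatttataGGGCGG

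The values that chose the lost islands are given first, as a description without a test. Lost islands were short and weak at 0 h, with a median length of 2400 bp (quartiles 1800 and 3200 bp) and a median score of 63.0 (41.3 and 113). The 10143 distal 0 h islands present in all 4 lists at 48 h, called stable islands, had a median of 3600 bp and a median score of 192. The 1709 islands absent from both empty-vector lists and present in both SETD5 lists at 48 h, called SETD5-retained islands, lay between them, at 2800 bp and a score of 91.6. Of the lost islands, 78.2% scored under the median of the whole replicate A list. The share of distal islands that were lost fell from 39.3% in the lowest quartile of scores to 30.7%, 19.8% and 5.23% in the quartiles above it.

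Just outside the rule stood 1319 distal islands that overlapped exactly 1 of the 4 lists at 48 h, with a median score of 73.5 and a median length of 2600 bp. The list they overlapped was empty vector A for 186, empty vector B for 156, SETD5 A for 396 and SETD5 B for 581. These 48 h lists held 31292, 33131, 39068 and 39451 islands in the same order, so the SETD5 lists were also longer. The part of list length or of read depth in these counts and in the number of SETD5-retained islands was not tested. Absence from a list was common among weak islands also between replicates. Of all 22675 distal islands of the empty-vector 0 h list A, before replicate B was asked for, 11.7% were absent from replicate B at 0 h, 11.7% and 14.4% from the SETD5 0 h lists A and B, 45.7% and 43.7% from the empty-vector 48 h lists A and B, and 34.6% and 33.4% from the SETD5 48 h lists A and B. In the lowest quartile of scores these values were 39.0%, 31.8%, 38.0%, 65.5%, 64.2%, 55.1% and 53.2% in the same order. In the highest quartile they were 0%, 0.2999%, 0.282%, 18.2%, 16.7%, 9.60% and 9.30%. The lowest quartile therefore held many absences between 0 h lists too, and 41.4% of the lost islands came from the lowest score quartile of the distal islands shared with replicate B.

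Lost islands lay farther from genes than the stable ones. The median distance from the midpoint to the nearest protein-coding transcript start was 55.3 kb for lost, 35.4 kb for stable and 46.9 kb for SETD5-retained islands. Of the lost islands, 2910 (61.2%) were intergenic, 1778 (37.4%) intronic and 70 (1.47%) exonic at the midpoint, and of the stable islands 52.7%, 44.9% and 2.39%. The nearest 48 h H3K27ac island of any of the 4 lists was a median of 11.8 kb away from a lost island, and 532 lost islands (11.2%) had one within 2 kb. By chromosome, the lost share of distal islands ran from 18.9% on chromosome 12 to 27.1% on chromosome 10 among autosomes and was 31.3% on chromosome X.

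H3K27ac of SETD5-transduced cells at 0 h was not used by the rule. It was found at 3903 lost islands (82.0%) in replicate A and at 3698 (77.7%) in replicate B, against 92.0% and 89.7% of all distal 0 h islands. Both lists held 3524 lost islands (74.1%) and neither held 681 (14.3%), against 87.7% and 5.97% of all distal islands. Stable islands were overlapped in 96.6% and 95.5% of cases. Most lost islands were thus acetylated before induction in both vectors, and in either replicate a smaller share of them than of the stable islands. The mean over the 2 libraries was 79.9% ± 3.05 (SD, n = 2) for lost and 96.1% ± 0.781 for stable islands. The gap moved with the 0 h score. In the lowest quartile of scores, lost islands stood at 69.7% (A) and 62.3% (B) and stable islands at 84.1% and 80.6%. In the highest, lost islands stood at 99.6% in either list and stable islands at 99.95% and 100%. In a logistic model with log2 length and log2 score as covariates, the odds ratios of lost against stable islands were 0.370 (A) and 0.377 (B). Without the covariates they were 0.159 and 0.163.

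SETD5-V5 was listed at few lost islands, and at more of them at 6 h than at 0 h (see the plot of shares by library). At 0 h replicate A placed it at 533 lost islands (11.2%) and replicate B at 115 (2.42%), where 30.9% and 12.5% of all distal islands had it. At 6 h the counts were 1338 (28.1%) in replicate A and 993 (20.9%) in replicate B, against 63.2% and 50.8% of all distal islands. Both 6 h lists held 797 lost islands (16.8%) and neither held 3224 (67.8%), against 48.1% and 34.1% of all distal islands. The 6 h share exceeded the 0 h share by 17.7 percentage points on average, 16.9 within letter A and 18.5 within letter B. The 6 h lists were also longer in both replicates and held more of all distal islands, and the part of list length in the difference between the times was not tested. An exact two-sided permutation test over the 4 libraries gave p = 0.3333, the smallest value that 2 against 2 allow, and 0.5 with the letters as blocks, also the smallest possible.

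Beside the stable islands the lost ones had less SETD5-V5 in every library. At 6 h, stable islands carried it in 83.0% (A) and 69.5% (B) of cases and SETD5-retained islands in 59.3% and 43.4%. The 6 h mean was 24.5% ± 5.13 (SD, n = 2 libraries) at lost, 51.3% ± 11.2 at SETD5-retained and 76.3% ± 9.53 at stable islands. At 0 h, stable islands stood at 44.2% and 19.4%, and SETD5-retained islands at 24.1% and 8.66%. The order lost, SETD5-retained, stable was the same in all 4 SETD5-V5 libraries. A middle place was not particular to SETD5-retained islands. The remaining distal islands, in some but not all 48 h lists, had a mean of 48.1% ± 10.2 at 6 h. At 0 h their mean was 15.1% ± 10.2, beside 16.4% ± 10.9 at SETD5-retained islands. Islands are not replicates, so no test over them was made.

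**Figure D1:**
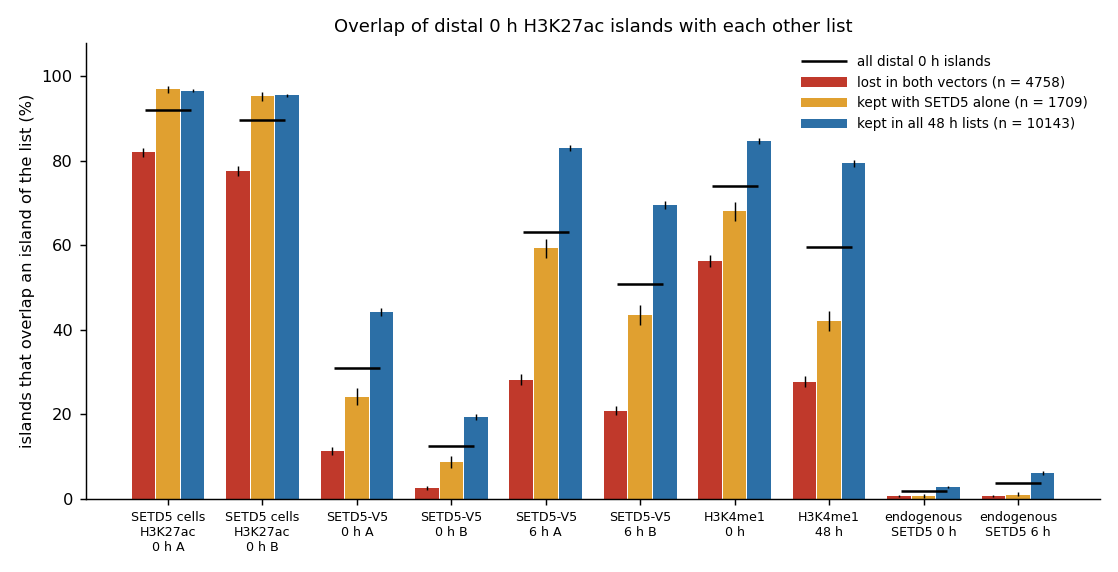
Percentage of distal 0 h islands that overlap an island of each of 10 lists, for lost islands (red), SETD5-retained islands (yellow) and stable islands (blue); bars start at 0, error bars are exact 95% binomial intervals that cover counting error only, and black dashes are all 20028 distal islands. Lost islands have the lowest bar for H3K27ac of SETD5 cells, SETD5-V5 and H3K4me1, for example 28.1% against 83.0% for SETD5-V5 at 6 h in replicate A.

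Length and 0 h strength moved with these shares, which were therefore also read within quartiles of score, within a range of length and in a model with both as covariates. A quartile does not hold the score level, since scores in the highest reached 2691 for lost and 21110 for stable islands. Within the highest quartile of 0 h scores, 262 lost islands carried SETD5-V5 at 6 h in 37.8% (A) and 29.4% (B) of cases, and 4034 stable islands in 89.6% and 78.4%. Within the lowest quartile the shares were 25.2% and 18.5% of 1968 lost islands and 75.3% and 60.6% of 1456 stable ones. Among islands of 1200 to 2000 bp they were 22.9% and 16.2% of the lost and 71.3% and 52.7% of the stable islands. In a logistic model of lost and stable islands with log2 length and log2 score as covariates, the odds of an overlap with SETD5-V5 at 6 h at lost islands were 0.109 (A) and 0.154 (B) times those at stable islands, and without the covariates 0.0802 and 0.116. The adjusted odds ratios for SETD5-V5 at 0 h were 0.294 (A) and 0.210 (B).

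**Figure D2:**
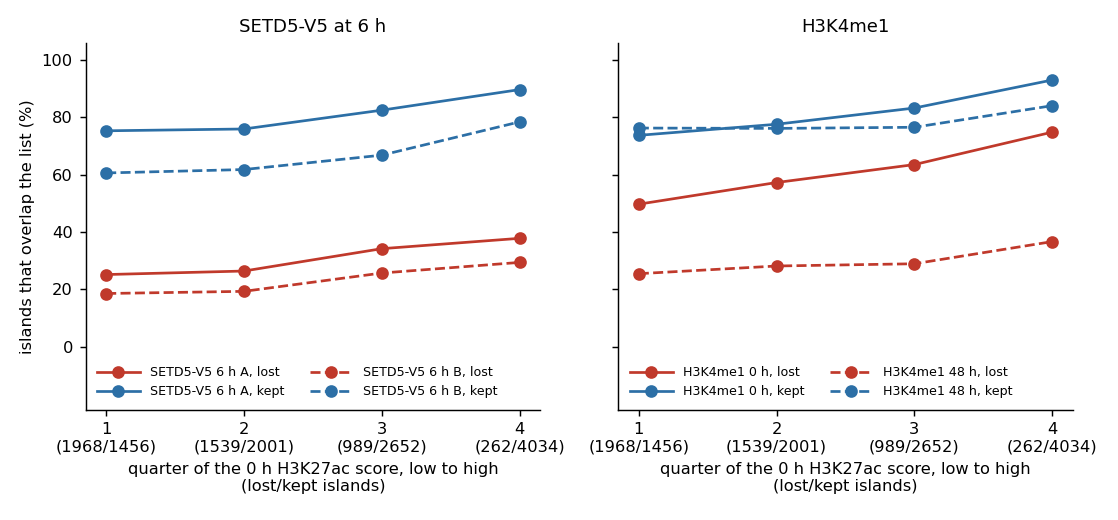
Percentage of lost (red) and stable (blue) islands that overlap SETD5-V5 islands at 6 h (left, replicate A solid, B dashed) and H3K4me1 islands (right, 0 h solid, 48 h dashed), by quartile of the 0 h H3K27ac score; the numbers of lost and stable islands stand under each quartile. In the highest quartile 37.8% of lost and 89.6% of stable islands overlap SETD5-V5 at 6 h in replicate A, and 36.6% and 84.0% overlap H3K4me1 at 48 h.

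The shares rose with the number of 48 h H3K27ac lists that an island overlapped. That number was mixed with the vector. The 2261 islands in 2 lists included the 1709 SETD5-retained islands, and of the 1319 in 1 list, 396 were in SETD5 A and 581 in SETD5 B. For 0, 1, 2, 3 and 4 lists, replicate A at 6 h had SETD5-V5 at 28.1%, 46.4%, 55.9%, 66.6% and 83.0% of islands and replicate B at 20.9%, 32.3%, 41.1%, 50.6% and 69.5%. H3K4me1 at 48 h followed with 27.7%, 42.5%, 45.9%, 61.7% and 79.4%. Median 0 h scores also rose, from 63.0 through 73.5, 86.8 and 93.6 to 192.

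**Figure D3:**
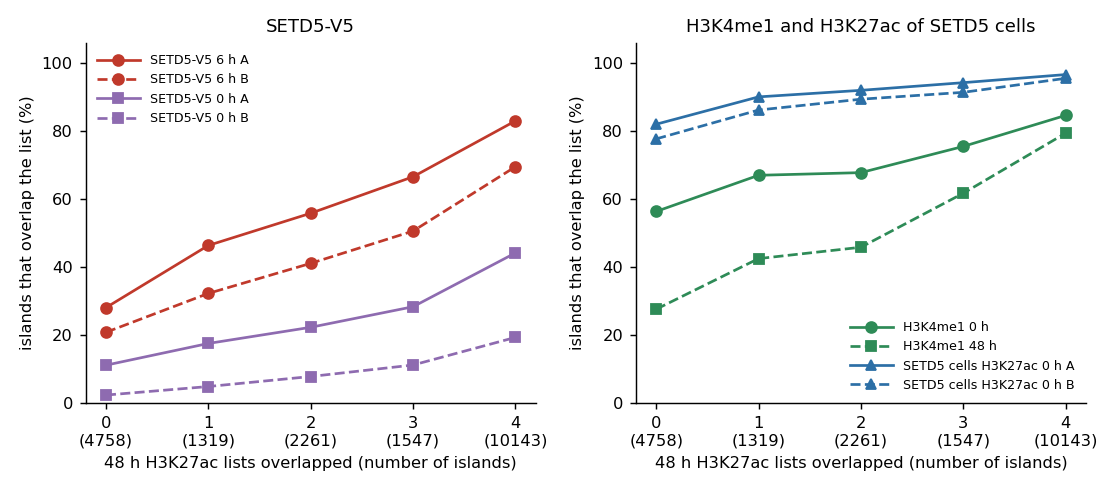
Percentage of distal 0 h islands that overlap SETD5-V5 lists (left) and the H3K4me1 lists and the H3K27ac lists of SETD5 cells at 0 h (right), by the number of 48 h H3K27ac lists the island overlaps; the number of islands stands in brackets and the leftmost point is the lost islands. Each line rises from left to right, SETD5-V5 at 6 h in replicate A from 28.1% to 83.0%.

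Endogenous SETD5, detected with the antibody IgG-F2104 in 1 library per time, was listed at 25 lost islands (0.525%) at 0 h and 26 (0.546%) at 6 h. All distal islands stood at 1.89% and 3.71%, and stable islands at 2.77% and 6.07%. SETD5-retained islands stood at 0.527% (9 islands) at 0 h and 0.936% (16 islands) at 6 h. At 0 h they were thus level with the lost islands, unlike in the SETD5-V5 lists, and the counts are small. The remaining distal islands, in some but not all 48 h lists, stood at 1.84% and 2.49%. Of the 797 lost islands in both SETD5-V5 lists at 6 h, 16 were also in the endogenous SETD5 list of that time, as were 685 of the 9641 such islands among all distal ones.

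H3K4me1 was present at most lost islands at 0 h and at a minority at 48 h. At 0 h it was found at 2683 of 4758 (56.4%, exact 95% binomial interval 55.0 to 57.8%), and at 48 h at 1316 (27.7%, 26.4 to 29.0%), where all distal islands had 74.2% and 59.5%. Stable islands had 84.6% at 0 h and 79.4% at 48 h, and SETD5-retained islands 68.1% and 42.0%. Of the lost islands with H3K4me1 at 0 h, 44.5% still had it at 48 h, against 74.4% of all distal and 87.8% of the stable ones. The intervals cover counting error only, and with 1 library per time the difference between the times has no replicate check.

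By combination, 1195 lost islands (25.1%) had H3K4me1 at both times, 1488 (31.3%) at 0 h alone, 121 (2.54%) at 48 h alone and 1954 (41.1%) at neither. Of all distal islands, 55.2% had it at both times, 19.0% at 0 h alone and 21.5% at neither, and of the stable islands 74.3%, 10.3% and 10.3%. Lost islands with H3K4me1 at both times had a median score of 68.0, and those with it at 0 h alone 68.5. Adjusted for log2 length and log2 score, the odds of H3K4me1 at lost islands were 0.356 times those of stable islands at 0 h and 0.119 times at 48 h.

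SETD5-V5 was listed more often where H3K4me1 was, at lost islands as at all distal islands. Of the lost islands with H3K4me1 at both times, 45.9% (A) and 31.8% (B) had SETD5-V5 at 6 h, of those with it at 0 h alone 29.6% and 22.6%, and of those with neither 15.1% and 12.8%. Over all distal islands these shares were 79.8% and 65.6%, 49.8% and 38.4%, and 30.8% and 23.3%. Conversely, among the 797 lost islands in both SETD5-V5 lists at 6 h, 75.03% had H3K4me1 at 0 h and 45.4% at 48 h, and among the 3224 in neither list 48.9% and 20.8%. For all distal islands the values were 86.4% and 77.7% in both lists and 55.0% and 32.9% in neither. For the lost islands in both lists and in neither, median scores were 72.7 and 60.4, and H3K27ac of SETD5 cells at 0 h was present in 91.0% (A) and 88.6% (B) of the former and 78.6% and 73.6% of the latter, against 96.6%, 95.5%, 84.8% and 80.7% for all distal islands. Islands in both SETD5-V5 lists at 6 h and in neither at 0 h numbered 523 (10.99% of the lost islands), against 22.8% of all distal and 28.6% of stable islands.

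Motifs were counted as exact matches on both strands in the central 1000 bp of each island, and matches of different motifs were counted separately where they shared bases. AP-1 (TGACTCA), a dimer of FOS and JUN proteins that is active in fibroblasts, matched in 1020 lost islands (21.4%), in 24.03% of all distal islands and in 25.9% of stable ones. TEAD (GGAATG), the DNA-binding partner of YAP, matched in 54.9% of lost, 50.5% of all and 48.1% of stable islands. The homeobox core (TAATTA) matched in 27.7%, 25.5% and 23.7%, and STAT (TTCNNNGAA) in 35.0%, 32.8% and 31.1%. The GC box (GGGCGG), bound by SP1 and related factors, matched in 8.11% of lost, 12.6% of all and 15.4% of stable islands. The median GC content of these groups was 42.55%, 43.9% and 45.0%, and its part in the motif shares was not tested.

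For 5 of the other motifs the shares in lost and all distal islands were closer in ratio than for those above. They were RUNX (TGTGGTT) with 25.1% of lost and 23.97% of all islands, C/EBP (TTGCNNAA) with 42.8% and 42.5%, the glucocorticoid receptor pair (ACANNNTGT) with 30.8% and 30.4%, the TWIST E-box (CAGATG) with 61.1% and 60.6%, and the SRF CArG box with 5.74% and 5.85%. The rare CREB and NFI motifs were further apart in ratio than the GC box, CREB (TGACGTCA) with 9 lost islands (0.189%) against 0.599% of all and the NFI pair with 2 (0.0420%) against 0.105%. EBF matched in 2.35% and 2.56%. Within the lost islands AP-1 matched in 29.4% of those in both SETD5-V5 lists at 6 h and 18.9% of those in neither, against 27.4% and 19.6% among stable islands. C/EBP did so in 45.3% and 42.1% of the lost islands, against 43.7% and 39.2% among stable islands. A match says only that the letters are there.

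Nearest genes were taken as the protein-coding gene whose transcript start was closest to the island midpoint, within 50 kb. Of the 4758 lost islands, 2246 (47.2%) had one, and these were 20.4% of the 10997 distal islands with a gene. They fell on 1649 genes, which is 30.8% of the 5354 genes with a distal 0 h island. Of these genes 1256 had 1 lost island, 273 had 2, 82 had 3 and 38 had 4 or more. The 20 genes with the most lost islands held 124 of them among 197 distal islands, while 40 islands of these genes were stable. At the 124 islands SETD5-V5 was listed at 43 (34.7%) in replicate A and 39 (31.5%) in replicate B at 6 h, and H3K4me1 at 73 (58.9%) at 0 h and 25 (20.2%) at 48 h. The genes were ranked on the lost islands themselves, so their counts are a description.

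*Sorbs2*, whose product is a scaffold protein of actin stress fibres, stood first with 11 lost islands of 12 distal ones and none stable. It lies at chr8:46593148-46913259 on the plus strand (ENSMUSG00000031626.9). Its lost islands had scores of 29.2 to 278 and lengths of 1600 to 3600 bp, and they lay between 84.0 and 337 kb from the 5′ end of the gene. H3K4me1 covered all 11 at 0 h and 3 at 48 h. SETD5-V5 at 6 h was at 3 of them in replicate A and 5 in replicate B, and H3K27ac of SETD5 cells at 0 h likewise at 3 (A) and 5 (B), so most of the 11 were not listed in SETD5 cells before induction either. The single other distal island, 20.1 kb from the 5′ end, had a score of 546 and was SETD5-retained. Of all 20 islands of the replicate A list in the stretch drawn below, promoters included, 17 overlapped no 48 h H3K27ac list. Of these 17, 4 overlapped a promoter and 1 was not in replicate B. The stretch runs past the end of the gene, which is 320 kb long. The count of 11 was 1 with 0 h islands above the median score, and 3 with the nearest gene taken from genes of any type.

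**Figure D4:**
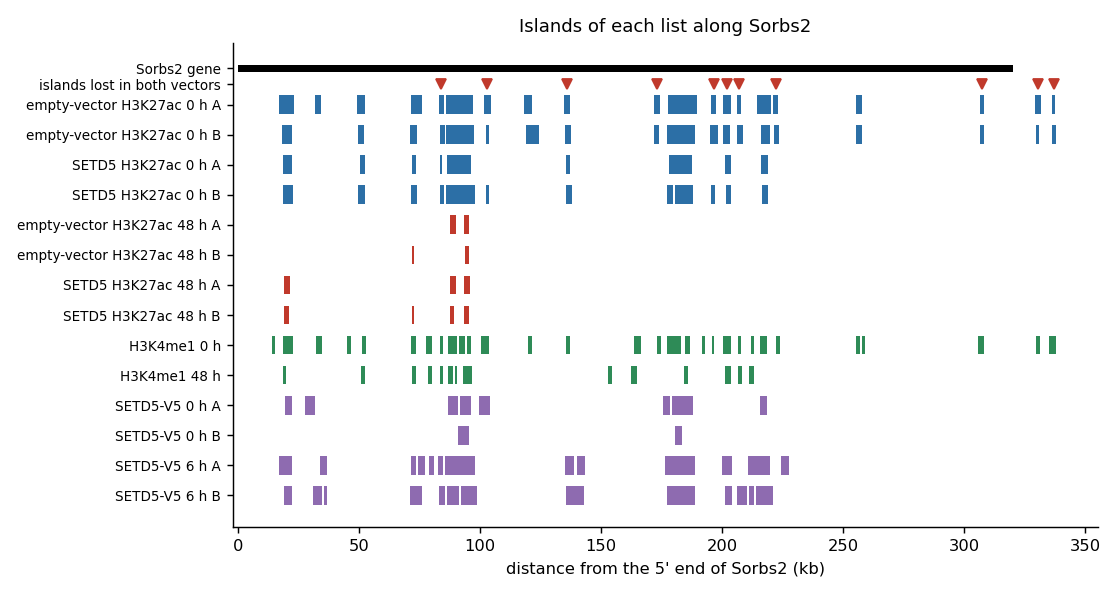
Islands of 14 lists along *Sorbs2* and past its end, by distance from the 5′ end of the gene in kb. Each bar is 1 island, the black line is the gene and red triangles mark the 11 lost islands. The empty-vector 0 h lists have 20 islands each here and the empty-vector 48 h lists 2 each.

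*Palld*, which encodes the actin-crosslinking protein palladin, had 8 lost islands of 13 with 4 stable ones. SETD5-V5 at 6 h was at 6 of the 8 in replicate A and 6 in replicate B, and H3K4me1 at 7 at 0 h and 4 at 48 h. *Limch1*, a regulator of non-muscle myosin, had 6 of 8, of which only 1 was listed in SETD5 cells at 0 h in replicate A and none in replicate B. *Synpo2*, encoding the actin-bundling protein synaptopodin 2, had 5 of 8. *Itga8*, the integrin subunit alpha 8, had 6 of 10, all listed in both SETD5 0 h lists and all with H3K4me1 at 0 h, 2 at 48 h.

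*Adamtsl3*, an ADAMTS-like glycoprotein gene, had 7 lost islands of 16 with 2 stable, and *Adamtsl1* 6 of 11, of which none was in SETD5 0 h list A and 1 in list B. *Ccbe1*, needed for growth of lymphatic vessels, had 7 of 10 and none stable, all 7 listed in both SETD5 0 h lists and none with SETD5-V5 at 6 h. *Fibin* had 6 of 8 and none stable. *Tnfsf15*, a cytokine of the TNF family, had 5 of 7 and none stable, with SETD5-V5 at 6 h at 3 (A) and 4 (B).

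The remaining genes of the 20 were *Nckap5* (7 of 9 lost), *Nipal2* (6 of 8), *Macrod2* (6 of 9), *Sbf2* (6 of 9), *Gtdc1* (6 of 13), *Lclat1* (6 of 17), *Kif16b* (5 of 6), *Lrtm1* (5 of 7), *Mpdz* (5 of 7) and *Me3* (5 of 9). *Sbf2* encodes a myotubularin-related protein, *Kif16b* a kinesin and *Me3* a mitochondrial malic enzyme. Of the 6 lost islands of *Gtdc1*, 5 (A) and 4 (B) had SETD5-V5 at 6 h. The promoter of a gene could stay listed while some of its distal islands were lost. How often this held over all genes was not counted. *Palld*, *Fibin*, *Sbf2*, *Gtdc1*, *Lclat1*, *Kif16b*, *Mpdz* and *Me3* had a promoter island in both 0 h lists of empty-vector cells and in all 4 lists at 48 h. *Sorbs2*, *Limch1*, *Macrod2* and *Adamtsl1* had one in both at 0 h and in none at 48 h. The other genes of the 20 had a promoter island in some of the 48 h lists or in none of these lists. *Ccbe1* had one in both SETD5 lists and in neither empty-vector list at 48 h.

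**Figure D5:**
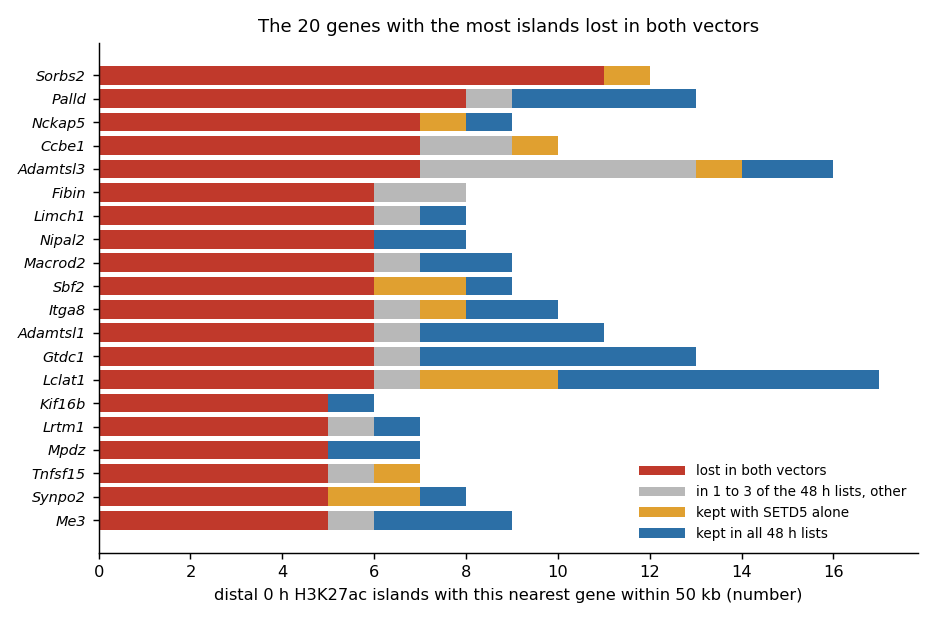
Number of distal 0 h islands per gene for the 20 genes with the most lost islands, split into lost (red), in some of the 48 h lists (grey), SETD5-retained (yellow) and stable islands (blue). *Sorbs2* leads with 11 lost of 12, and *Sorbs2*, *Ccbe1*, *Fibin* and *Tnfsf15* have no stable island.

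Gene lists of pathways are given as lost of all distal islands near their genes, beside 20.4% over all genes. Adipogenic regulators and adipocyte genes had 1 lost island of 46 (2.17%), near *Zfp423*, a zinc finger gene of fat commitment with 5 further islands stable, and 37 of the 46 were stable (80.4%, against 54.9% over all genes). Preadipocyte and anti-adipogenic factors had 0 lost of 19 distal islands, near 9 genes, and 10 were stable. AP-1 factors had 1 of 10, near *Jun*. The SRF and actin cytoskeleton list, which does not hold *Sorbs2* or *Palld*, had 3 of 52 (5.77%), 1 each near *Cald1*, *Flna* and *Tpm1*, genes of caldesmon, filamin A and a tropomyosin.

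Extracellular matrix and adhesion genes had 21 lost islands of 105, near 13 of 28 genes. *Timp3*, an inhibitor of matrix metalloproteinases, had 3 of 5 lost, *Tnc*, encoding tenascin-C, 3 of 3, the collagen gene *Col12a1* 2 of 9 and *Col6a3* 2 of 4. Growth factor receptors and ligands had 10 of 52 (19.2%), with 2 near *Fgfr2* (of 8), 2 near *Vegfc* (of 5), 1 near *Fgf7* (of 4) and 1 near *Hgf* (of 3). Mesenchymal transcription factors had 6 of 32 (18.8%), with 2 of 3 near *Zeb1*, a repressor of epithelial genes, and 1 each near *Meis2*, *Nfib*, *Snai2* and *Twist2*. Inflammatory genes had 2 of 28 (7.14%), near *Il33* and *Lif*.

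Among signalling lists, the Wnt pathway, which restrains adipogenesis, had 9 lost of 48 (18.8%), 2 near the secreted modulator *Sfrp2* (of 6) and 1 each near *Ctnnb1* (β-catenin), the receptor genes *Fzd1*, *Fzd2*, *Fzd7* and *Ror1*, the transcription factor gene *Lef1* and *Sfrp1*. The TGF-β and BMP pathway had 7 of 70 (10.0%), with 2 near the ligand gene *Tgfb2* (of 4), 2 near *Tgfbi* (of 7) and 1 each near *Bmpr1a*, *Ltbp1* and *Smad6*. The TEAD, YAP and target list had 6 of 44 (13.6%), 2 near *Amotl2*, 2 near *Vgll4* and 1 each near *Ankrd1* and *Lats2*. Glucocorticoid responsive genes, a list with few islands, had 5 of 17 (29.4%), with 2 of 4 near *Sgk1*, a kinase gene, and 1 each near *Dusp1*, *Nr3c1* and *Tsc22d3*.

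Cell cycle genes had 5 of 27 (18.5%), with 2 of 5 near *Ccnd3* and 1 each near *Ccnd1*, *E2f1* and *E2f3*. None of these lists was tested against the other genes.

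The strongest lost islands were far above the median of the list. The 12600 bp island 25.7 kb from *Grpel1* (chr5:36775601-36788200), encoding a cofactor of mitochondrial protein import, had a score of 2691 and only 2.55% of the replicate A islands scored higher, 1.65% for its counterpart in replicate B. It was listed in both SETD5 0 h lists and in no SETD5-V5 list. H3K4me1 was listed there at both times, with 14400 bp in 1 island at 0 h and 7400 bp over 3 islands at 48 h. The 7200 bp island in *D630042P16Rik* (chr6:112307001-112314200, score 2218) had H3K4me1 at 0 h alone and no SETD5-V5. The 6000 bp island closest to *Fam101a* (chr5:125430401-125436400, score 1718) had H3K4me1 of 6400 bp over 2 islands at 0 h and 1200 bp in 1 island at 48 h, and no SETD5-V5. Its H3K4me1 at 48 h was weak, since 80.8% of that list scored higher.

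The 3800 bp island 38.1 kb from *Tlr3* (chr8:46532201-46536000, score 1448), the gene of a receptor for double-stranded RNA, had H3K4me1 at both times and SETD5-V5 in replicate A at 6 h alone. Of the H3K4me1 lists, 23.2% of islands scored higher than its own at 0 h and 80.0% at 48 h. The 11600 bp island 23.7 kb from *Kcns2* (chr15:34737601-34749200, score 1315) had SETD5-V5 in both lists at 6 h and in list B at 0 h, and H3K4me1 at 0 h alone. The 14800 bp island 49.2 kb from *Npvf* (chr6:50646201-50661000, score 1252), the longest lost island, had SETD5-V5 in both lists at 6 h and in neither at 0 h. Its H3K4me1 was 10600 bp over 4 islands at 0 h and 3000 bp in 1 island at 48 h. All 6 were in both SETD5 0 h lists and none was in an endogenous SETD5 list.

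The next lost islands in score with SETD5-V5 in both lists at 6 h were 68.9 kb from *Rbm43* (chr2:51710401-51716800, score 1119) and 318 kb from *Cdh18* (chr15:22158401-22164000, score 1087). The former had SETD5-V5 in list A at 0 h and the latter in both lists, with islands of 8800 and 5600 bp. Both had H3K4me1 at 0 h alone. The second longest lost island, 13000 bp in an intron of *Agbl4* (chr4:111137401-111150400), had H3K4me1 at 0 h alone and no SETD5-V5.

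Groups were formed of lost islands only, so whether they group more than other distal islands was not tested. With midpoints up to 50 kb from the next, lost islands formed 3203 groups. Of these groups, 2301 were single islands and 79 held 5 or more, 501 islands in all. The largest, 14 lost islands over 291 kb at chr15:34511401-34802200 with the genes *Nipal2* and *Kcns2*, included 8 with SETD5-V5 at 6 h in each replicate and only 2 with H3K4me1 at 0 h, although 13 and 14 were in the SETD5 0 h lists A and B. It also held 4 stable islands. The second, 13 lost islands over 231 kb at chr2:117363201-117593800 with no protein-coding gene in it, had H3K4me1 at 12 at 0 h and 6 at 48 h. SETD5-V5 at 6 h was at 8 (A) and 10 (B). This group held no stable island and 2 SETD5-retained ones. The third, 11 lost islands at chr1:81807801-82027000, had SETD5-V5 at 6 h at 1 (A) and 3 (B), H3K4me1 at 5 at 0 h and 1 at 48 h, and 8 of them in each SETD5 0 h list. It also held 1 stable island and 6 others in some of the 48 h lists.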

How the data were processed

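ChIP-seq island lists of 16 libraries from 3T3-L1 cells were used. The authors aligned 36 bp reads to mm9 (ELAND or Bowtie2) and called islands with SICER in each library separately, at an E-value of 100, from 200 bp windows joined over gaps of up to 400 bp (histone marks) or 600 bp (SETD5). Each deposited list gives the position of every island and its score from SICER, as the authors left it. Because only islands over the threshold are listed, absence means under it.

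An overlap of 1 bp or more counted as shared. Sequence and genes came from NCBIM37 (mm9) and GENCODE vM1, and coordinates are 1-based. Groups and replicate letters came from the labels. Exact binomial intervals are at 95%. Percentages over islands were not tested, since islands are not replicates. The difference in SETD5-V5 between 6 h and 0 h was tested over libraries with an exact permutation test, with the replicate letters as blocks as an alternative. Odds ratios came from logistic models and carry no p-value.

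The members, gene lists and tests were chosen with earlier results of these data known. Genes named are the 20 with the most lost islands, plus genes of 14 fixed lists, of which 1 is not reported here. Islands named are the 6 highest-scoring, the 4 highest-scoring with SETD5-V5 in both 6 h lists, the 3 longest and the 3 largest groups. List genes beyond the 4 with most lost islands were named after their values were seen. Symbols missing from the annotation (*Pref1*, *Gilz*, *Ajuba*, *Spi1*) were not analysed here.

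Alternatives were an overlap of at least 50%, islands above the median score, islands within 1000 bp merged, replicate B as the list of islands, a promoter of 2500 bp upstream to 500 bp downstream, each replicate left out, members at least 2000 bp from 48 h islands, other windows for motifs and other nearest-gene rules. Reading only the central 1000 bp of each island was added after seeing the data. Scripts were tested on simulated data, and overlap counts of 15 lists were checked with bedtools 2.31.1, with 0 differences. Python 3.11.15, numpy 2.4.6, pandas 2.3.3, scipy 1.17.1, statsmodels 0.14.6, pysam 0.24.0 and matplotlib 3.10.9 were used. Expression arrays and other ChIP-seq data were not analysed here.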

Additional observations from a re-analysis of the deposited data

How the results depend on the processing

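The number of lost islands depended most on the score. It was 895 (10.5% of distal islands) with 0 h islands above the median score, where H3K4me1 at 0 h was at 66.0% and H3K27ac of SETD5 cells at 0 h at 96.5% of them, and 2704 (31.6%) with islands above the median in every list. With 1 replicate letter left out, which leaves fewer 48 h lists to be absent from, it was 6941 to 7785 (30.6 to 31.5%), with SETD5-V5 at 6 h at 20.5 to 30.3%, H3K4me1 at 50.4 to 56.1% at 0 h and 27.3 to 29.8% at 48 h, and H3K27ac of SETD5 cells at 65.5 to 78.1%. With an overlap of at least 50%, the lost share was 30.6% and H3K4me1 was at 47.97% at 0 h and 21.8% at 48 h. Lost islands at least 2000 bp from every 48 h island were 21.9% of distal islands. Reading the central 1000 bp gave H3K4me1 at 53.7% and 25.5%. AP-1 matched in 10.1% in 400 bp windows. Over these alternatives the share with SETD5-V5 at 6 h at lost minus that at stable islands ran from -52.9 to -46.5 percentage points. The counts near the 20 genes moved by over 1.5 times for 20 genes with 0 h islands above the median score, for 19 with islands above it in every list, for 5 with genes of any type, for 3 with islands merged and for 1 each with genes within 100 kb, with islands at least 2000 bp from 48 h islands and without replicate A.

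With the replicate block, the SETD5-V5 difference between 6 h and 0 h was 17.7 percentage points with an exact permutation p of 0.5, the smallest possible; with 2 letters the pairing could not be checked. The design is too small for either p to pass a threshold, so they say nothing about stability.

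The lists hold no reads, so small changes of H3K27ac cannot be seen, and how far under the threshold a lost island fell is not known. SETD5-V5 lists differ in size between libraries and times, so their shares compare most directly within a library, and list size moved with the difference between 6 h and 0 h. Nearest genes are assigned by distance, and no expression was analysed.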
